A study of Mus musculus with 4 samples.

Results

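The secondary granule protein genes Camp, Ngp, Ltf, Lcn2, Chil3, Fcnb, Olfm4, Cd177 and Wfdc21 were followed in neutrophils taken from mammary tumors and from blood. These 9 genes were chosen by name out of 18894 genes listed in the tumor and blood tables, and all 9 were present in both tables. The neutrophils came from tumors and blood of 3 untreated FVB mice (an inbred strain), each of which had been injected with Py7160 cells, a mouse mammary tumor line, and had grown a tumor of about 1 cm diameter within 2 to 3 weeks. There was no tumor-free mouse, so the blood neutrophils also came from tumor-bearing animals, and the age of the animals is not given in the labels. Tumors were digested with enzymes, whereas blood was depleted of red cells by lysis, and magnetic enrichment on Ly6G (about 90% pure) was followed by a sort for cells with both CD11b and Ly6G (over 99% pure). Cells of each mouse carried an antibody with a DNA hashtag, cells of the 3 mice were mixed within a tissue, and every tissue gave 1 RNA library by Drop-seq, in which droplets give each captured cell a barcode and each captured RNA molecule a unique identifier (UMI). Tissue, library and the way the cells were released therefore cannot be told apart, and all tests describe the spread between mice within a library.

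Neutrophils make their granules in sequence as they mature in the bone marrow: primary granules first, secondary (specific) granules at the myelocyte and metamyelocyte stages, and gelatinase granules later. The messages of secondary granule proteins are known to be abundant at those stages and to fall away in segmented neutrophils, while the proteins stay stored in the granules. In mice the transcription factor C/EBP-epsilon, encoded by Cebpe, is required for this group of genes. The proteins include antimicrobial peptides, proteins that withhold iron from bacteria, lectins and surface receptors.

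The comparison rests on barcodes with at least 200 detected genes and at most 15% of UMIs from mitochondrial genes. This left 947 tumor barcodes with 655627 UMIs and a median of 576 UMIs per barcode, and 1534 blood barcodes with 1271790 UMIs and a median of 662. The tables share 20 barcodes, of which 0 passed these limits in both. A mouse was assigned where at least 70% of at least 10 hashtag counts came from 1 hashtag. This gave 106, 564 and 171 tumor barcodes and 511, 456 and 408 blood barcodes for hashtags 1, 2 and 3, with 70612 to 385370 UMIs per mouse in tumor and 330296 to 436713 in blood. Hashtag 2 held 66.2% of the tumor hashtag counts, against 39.7% in blood. HTODemux, a caller that sets a background for each hashtag, left 230 of the 564 tumor barcodes of hashtag 2 without a call when hashtags were scaled across barcodes and 77 when they were scaled within each barcode. The tumor mice thus depend on the rule of assignment, and both rules are given where a call or an overlap between the groups changed; HTODemux stands for scaling across barcodes unless stated. The neutrophil genes S100a8 and S100a9 averaged 34232 ± 3822 and 34115 ± 2532 CPM (UMIs of a gene scaled to a total of 1000000 UMIs) in tumor and 89423 ± 7251 and 83173 ± 7494 CPM in blood (SD, n = 3 mice each). Of 9 epithelial markers 7 had no UMI in the tumor mice and 8 had none in the blood mice. The 6 erythroid markers had no UMI in tumor, against 13960 to 22162 CPM in the blood mice. Markers of other immune cells were found in both tissues. The 12 monocyte and macrophage markers summed to 892 to 2678 CPM in the tumor mice and 673 to 724 CPM in the blood mice. The 7 dendritic cell and MHC class II markers summed to 156 to 2854 CPM in tumor and 36.6 to 139 CPM in blood. The 8 T and NK cell markers summed to 8.56 to 38.9 CPM in tumor and 99.9 to 345 CPM in blood.

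Camp, Ngp and Ltf lie within 1.2 Mb of each other on mouse chromosome 9 (GENCODE vM21 on GRCm38, the assembly named mm10 in the submitters' processing notes). Camp, which encodes the antimicrobial peptide cathelicidin, occupies chr9:109847379-109849617 on the minus strand. Ngp, which encodes neutrophilic granule protein, a relative of the cathelicidins and cystatins, occupies chr9:110419747-110423012 on the plus strand. Ltf, which encodes the iron-binding protein lactoferrin, occupies chr9:111019271-111042767 on the plus strand. Lcn2 (chr2:32384633-32388252, minus strand) encodes lipocalin 2, which binds bacterial siderophores. Fcnb (chr2:28076378-28084885, minus strand) encodes ficolin B, a lectin of the complement system, and Chil3 (chr3:106147554-106167564, minus strand) encodes the chitinase-like protein Ym1. Olfm4 (chr14:79984081-80023139, plus strand) encodes olfactomedin 4, a glycoprotein found in only some neutrophils of mouse and human. Cd177 (chr7:24743983-24760311, minus strand) encodes a surface protein that in humans is present on only some neutrophils. Wfdc21 (chr11:83746940-83752642, plus strand) encodes a small protein with a whey acidic protein domain. All 9 are protein-coding, and Olfm4 is the one that overlaps another annotated gene, the lincRNA Gm6999 on the same strand.

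The 250 bases before the RefSeq start site (GRCm38.p6) are shown for 4 members that were counted in the same barcodes, Camp, Ngp, Ltf and Lcn2, with 2 motifs in capitals: TTGCNNAA, bound by C/EBP factors, and GAGGAAG, bound by PU.1, each searched on both strands. The windows are chr9:109849457-109849706 for Camp, chr9:110419558-110419807 for Ngp, chr9:111019042-111019291 for Ltf and chr2:32387740-32387989 for Lcn2. RefSeq and GENCODE place the starts differently. The Lcn2 window lies within the GENCODE gene, and the windows of Camp, Ngp and Ltf overlap their GENCODE genes in part.
Camp: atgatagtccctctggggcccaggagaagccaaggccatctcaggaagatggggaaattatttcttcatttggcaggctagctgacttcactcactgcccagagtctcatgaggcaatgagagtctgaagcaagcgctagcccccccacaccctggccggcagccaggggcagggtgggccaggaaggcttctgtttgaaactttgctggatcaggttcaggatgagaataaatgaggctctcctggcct
Ngp: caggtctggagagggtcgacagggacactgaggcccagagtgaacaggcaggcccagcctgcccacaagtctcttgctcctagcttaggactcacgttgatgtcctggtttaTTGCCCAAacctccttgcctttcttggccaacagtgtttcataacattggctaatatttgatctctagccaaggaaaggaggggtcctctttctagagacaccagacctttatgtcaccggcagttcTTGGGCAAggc
Ltf: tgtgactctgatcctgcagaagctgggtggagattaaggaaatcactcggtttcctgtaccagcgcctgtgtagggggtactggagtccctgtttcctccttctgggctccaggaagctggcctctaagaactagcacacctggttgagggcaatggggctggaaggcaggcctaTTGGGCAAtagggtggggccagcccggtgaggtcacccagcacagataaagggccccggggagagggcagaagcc
Lcn2: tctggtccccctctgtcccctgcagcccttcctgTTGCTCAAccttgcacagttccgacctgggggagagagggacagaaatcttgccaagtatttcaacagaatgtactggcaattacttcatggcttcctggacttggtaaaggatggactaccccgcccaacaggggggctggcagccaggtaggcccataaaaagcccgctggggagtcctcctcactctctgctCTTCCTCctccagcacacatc
Promoters were found for 8 of the 9 members. The C/EBP motif occurred in 4 of these 8 windows (Ngp, Ltf, Lcn2 and Fcnb), and in 9.56% of the 32851 promoters of the table. The PU.1 motif occurred in 2 of the 8 (Lcn2 and Olfm4), and in 10.6% of all promoters. Ngp held the C/EBP motif at 2 places, starting at positions -138 and -11 from the start site, Ltf at -75 and Lcn2 at -216. These matches describe the letters of the windows, and binding was not measured.

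The UMIs of Camp, Ngp, Ltf and Chil3 sat in very few barcodes of either library. Without any hashtag requirement, 983 Camp UMIs were found in 38 of 947 tumor barcodes, against 3925 Camp UMIs in 131 of 1534 blood barcodes. The 3 tumor barcodes with most Camp held at least 50% of its tumor UMIs, and 10 blood barcodes were needed for 50% of its blood UMIs. If Camp UMIs had been spread over barcodes in proportion to depth, 59.8% of tumor barcodes and 85.6% of blood barcodes would have held one, against the 4.01% (exact 95% interval 2.85 to 5.47%) in tumor and 8.54% (7.19 to 10.1%) in blood that did. Intervals given for single libraries cover counting error only.

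The share of a gene's UMIs in the top 1% of barcodes, ranked by that gene's own UMIs, depends on its number of UMIs as well as on its spread. At the same spread the share is larger with fewer UMIs. The shares therefore describe each gene, and no order between genes or tissues was read from them. For each gene its 9 top tumor barcodes held 91.4% of Camp, 87.0% of Ltf, 95.1% of Chil3 and 74.8% of Ngp, and its 15 top blood barcodes held 65.6% of Camp, 65.9% of Ltf, 74.8% of Chil3 and 53.9% of Ngp. The barcodes that ranked highest for Camp held 3.11% of all tumor UMIs and 4.22% of all blood UMIs. For Lcn2 the top 1% held 44.0% of 747 tumor UMIs, against 29.1% of 2714 blood UMIs, and for Wfdc21 28.1% of 892 tumor UMIs, against 12.5% of 6263 blood UMIs. Cd177 had 81.5% of its 27 tumor UMIs in the top 1%, against 45.9% of its 159 blood UMIs. Olfm4 had 35% of its 183 tumor UMIs, found in 88 barcodes, in the top 1%, against 69.0% of its 71 blood UMIs, found in 37 barcodes. Fcnb had 15 UMIs in 2 tumor barcodes and 4 UMIs in 2 blood barcodes. S100a8, an abundant neutrophil gene set beside them, had 15.3% of its tumor UMIs and 8.61% of its blood UMIs in the top 1%.

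**Figure D1:**
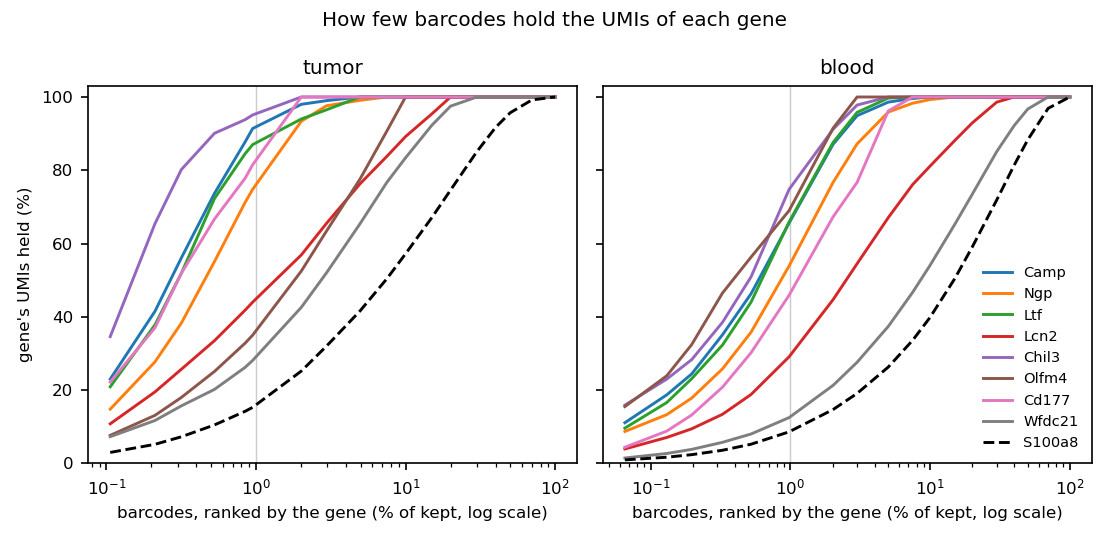
Share of each gene's UMIs (vertical axis, percent) held by the barcodes that rank highest for that gene (horizontal axis, percent of kept barcodes on a log scale), in tumor (left, 947 barcodes) and blood (right, 1534 barcodes); lines join computed points, the thin vertical line marks 1% of barcodes, and Fcnb is left out. At 1% the Camp line stands at 91.4% in tumor and 65.6% in blood, while Wfdc21 stands at 28.1% in tumor and 12.5% in blood.

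The hashtag requirement changed these shares little. Among the 841 tumor and 1375 blood barcodes with a mouse, the top 1% held 92.8% of Camp in tumor and 64.3% in blood, and 28.8% of Wfdc21 in tumor and 12.9% in blood. A measure of spread that takes out depth was also computed within each mouse, the variance beyond counting error divided by the squared mean. For Wfdc21 it was 3.25, 8.67 and 5.58 in the tumor mice and 0.882, 1.25 and 1.24 in the blood mice, with no overlap between the groups. For Ngp it was 38.1, 45.2 and 36.8 in tumor and 14.9, 20.8 and 30.1 in blood, again without overlap. Both gave p = 0.10 in the exact two-sided permutation test with tumor and blood unpaired, the smallest p that 3 mice against 3 allow. With HTODemux the Wfdc21 groups stayed apart, at 4.63, 5.17 and 6.32 in tumor and 0.95, 1.41 and 1.15 in blood (exact permutation p = 0.10). The Ngp groups overlapped with HTODemux, at 37.4, 20.9 and 46.1 in tumor and 16.4, 27.1 and 34.3 in blood (exact permutation p = 0.40), so the separation of Ngp rests on the top hashtag rule. For Lcn2 the groups overlapped, with 8.29, 21.3 and 8.21 in tumor and 4.31, 8.41 and 6.91 in blood (exact permutation p = 0.30). The other members had under 20 UMIs in at least 1 mouse and were not tested.

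The barcodes behind this concentration carried several members together. With a limit of at least 10 Camp UMIs, chosen after the values were seen, 11 tumor barcodes (1.16%) and 49 blood barcodes (3.19%) stood out. Most barcodes had no Camp at all, 909 in tumor and 1403 in blood, and few lay near the limit: 5 tumor barcodes had 5 to 9 Camp UMIs and 2 had 10 to 19, against 12 blood barcodes with 5 to 9 and 10 with 10 to 19. The 11 tumor barcodes held 3.31% of all tumor UMIs but 73.4% of Ngp, 88.3% of Ltf, 93.8% of Chil3, 42.7% of Lcn2, 59.3% of Cd177 and 24.2% of Wfdc21. The 49 blood barcodes held 9.26% of all blood UMIs and 86.3% of Ngp, 95.1% of Ltf, 90.7% of Chil3, 50% of Lcn2, 60.4% of Cd177 and 21.6% of Wfdc21. For Olfm4 they held 14.8% in tumor and 36.6% in blood. All 15 tumor UMIs of Fcnb and 2 of its 4 blood UMIs were in such barcodes.

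**Figure D2:**
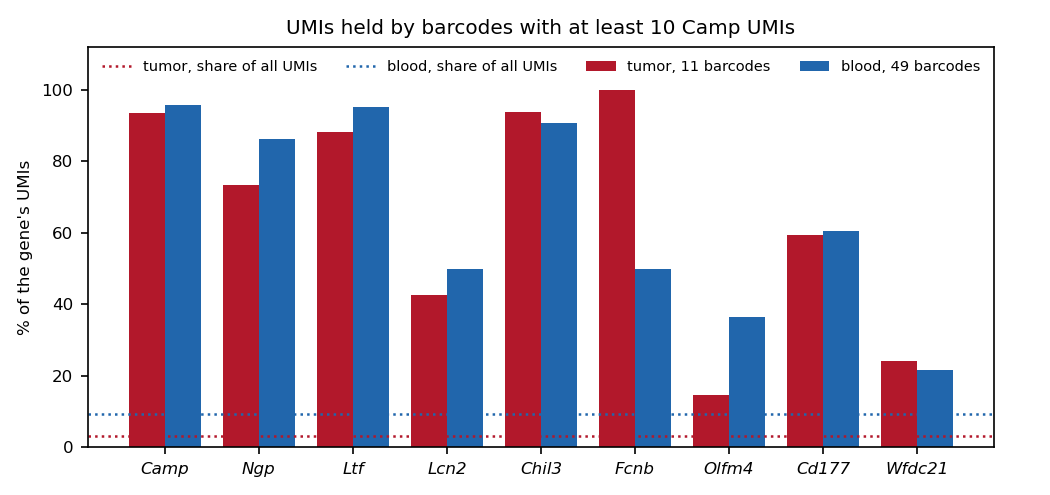
Percent of each member's UMIs (bars, vertical axis) that lay in the 11 tumor and 49 blood barcodes with at least 10 Camp UMIs; dotted lines give the share of all UMIs in those barcodes, 3.31% in tumor and 9.26% in blood. The bars of Ngp, Ltf and Chil3 stand at 73.4% or more in tumor and at 86.3% or more in blood, whereas Olfm4 stands at 14.8% in tumor and 36.6% in blood; the Camp bars follow from the choice of barcodes.

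The tumor barcode with most Camp held 226 Camp, 133 Ngp, 49 Ltf, 29 Lcn2, 25 Chil3 and 3 Fcnb UMIs among 3166 UMIs in all. The next held 182 Camp, 188 Ngp, 77 Ltf, 81 Lcn2, 28 Chil3 and 12 Fcnb UMIs among 3881. Ngp, Ltf and Lcn2 were present in all 11 tumor barcodes, and Ngp, Lcn2 and Wfdc21 in all 49 blood barcodes. The 9 members together made up between 4.2% and 16.3% of the UMIs of such a barcode in tumor (median 12.9%) and between 3.50% and 16.7% in blood (median 9.74%). Olfm4 had a UMI in 4 of the 11 tumor barcodes and in 5 of the 49 blood barcodes, and the 4 tumor barcodes with most Camp had none of it.

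**Figure D3:**
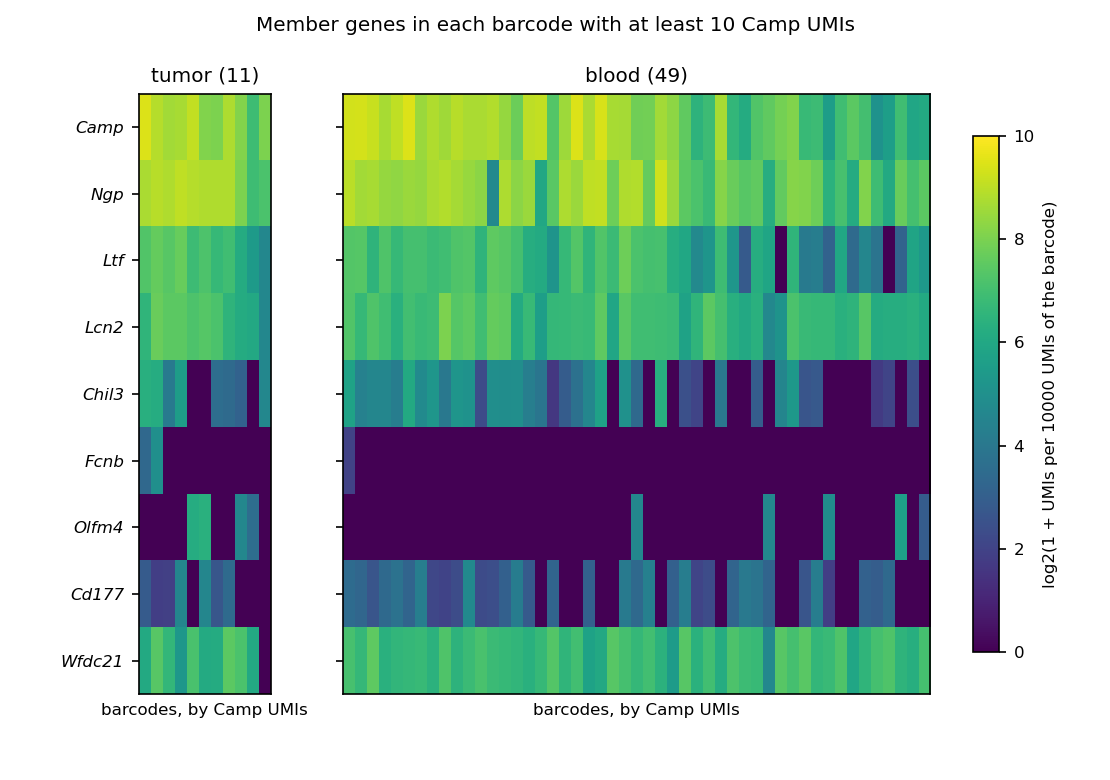
Level of each member (rows) in every barcode with at least 10 Camp UMIs (columns, most Camp UMIs at the left) in tumor (left panel, 11 barcodes) and blood (right panel, 49 barcodes), as log2(1 + UMIs per 10000 UMIs of the barcode). Ngp and Lcn2 are filled in every column of both panels, whereas Olfm4 is filled in 4 tumor and 5 blood columns and Fcnb in 2 tumor columns and 1 blood column.

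Other genes differed in these barcodes too, as a description with no test; Acod1 and Cxcl2 were chosen after their values were seen. The tumor ones had a median of 1750 UMIs against 573 in the remaining tumor barcodes, and the blood ones 2266 against 648. Cebpe had 1 of its 2 tumor UMIs and 19 of its 19 blood UMIs in them. S100a8 stood at 142870 CPM in the 11 tumor barcodes and 30958 CPM in the remaining ones, and at 154194 CPM in the 49 blood barcodes and 82636 CPM in the remaining ones. Acod1, the enzyme that makes itaconate, stood at 184 CPM in the 11 tumor barcodes against 3135 CPM in the remaining tumor barcodes and 10.4 CPM in the remaining blood barcodes. The chemokine gene Cxcl2 stood at 2486 CPM in the 11 tumor barcodes, against 32250 CPM in the remaining tumor and 19.1 CPM in the remaining blood barcodes. The proliferation list of 11 genes summed to 1059 CPM in the 11 tumor barcodes against 801 CPM in the remaining ones, and to 1197 CPM in the 49 blood barcodes against 1339 CPM. Hmgb2 alone gave 18 of the 23 list UMIs in the 11 tumor barcodes and 133 of the 141 in the 49 blood barcodes. In the remaining barcodes it gave 236 of 508 in tumor and 1478 of 1545 in blood. Pcna had 211 UMIs and Mki67 22 in all kept tumor barcodes. The sums thus follow few genes of the list and do not measure proliferation. The 9 primary granule genes summed to 506 CPM in the 11 tumor barcodes against 999 CPM in the remaining ones. In the 49 blood barcodes they summed to 306 CPM, against 116 CPM in the remaining ones. Of these genes Mpo, Elane, Ctsg and Bpi had no UMI in kept barcodes of either tissue. Cd63 had most, with 591 tumor and 125 blood UMIs. The 12 monocyte and macrophage markers summed to 2670 CPM in the 11 tumor barcodes against 2382 CPM in the remaining ones. In the 49 blood barcodes they summed to 1791 CPM, against 571 CPM in the remaining ones. Their part in the result was not tested apart from that of other cell types' markers. Fits without barcodes carrying at least 2 UMIs of another cell type's markers are given with the dependence on processing.

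The share of barcodes with at least 10 Camp UMIs was 0%, 1.42% and 0.585% in the 3 tumor mice and 3.91%, 3.73% and 2.45% in the 3 blood mice. It was lower in all 3 tumor mice than in any blood mouse (exact two-sided permutation p = 0.10, the smallest possible), and the counts behind it were 0, 8 and 1 barcodes in tumor and 20, 17 and 10 in blood. In tumor mouse 1, 0 of 106 barcodes allows a share of up to 2.83%. By the top hashtag, 8 of the 11 tumor barcodes belonged to mouse 2, 1 to mouse 3, and 2 had no mouse. HTODemux called 6 of those 8 negative and 2 as carrying several hashtags, and placed none in mouse 2, whereas with hashtags scaled within each barcode it placed 4 of the 8 in mouse 2 and called 4 negative. The mouse of these barcodes is thus not settled, and any value per tumor mouse of Camp, Ngp, Ltf, Chil3 or Fcnb rests on where they are placed.

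Between tumor and blood, 3 members were lower in tumor and 1 was higher past the threshold, and Camp, Ngp, Ltf and Chil3 did not pass it. Counts summed per mouse were compared with the quasi-likelihood test of edgeR with Benjamini-Hochberg adjustment over 3674 genes at 0.05, of which 30.3% were called higher and 29.6% lower in tumor. Of the 9 members 8 passed the low-count filter, which Fcnb did not: 1 of the 8 was called higher and 3 were called lower, and at 8 genes nothing particular to the group is read from these counts. The median log2 fold change of the 8 was -0.97, against -0.04 for all genes tested.

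Wfdc21 stood at 1161, 1560 and 1044 CPM in the tumor mice and at 5631, 4581 and 4684 CPM in the blood mice. All tumor mice were below all blood mice, and the log2 fold change was -1.92 ± 0.14 (SE; adjusted p = 5.81e-10, edgeR). Lcn2 stood at 977, 1290 and 993 CPM in tumor and at 2560, 2289 and 1777 CPM in blood. These groups did not overlap either, with a log2 fold change of -0.96 ± 0.15 (adjusted p = 1.8e-05, edgeR). Cd177 had 1, 25 and 1 UMIs in the tumor mice, or 14.2, 64.9 and 8.56 CPM, and 78, 48 and 29 UMIs in the blood mice, or 179, 126 and 87.8 CPM. It was lower in all 3 tumor mice, by a log2 fold change of -1.5 ± 0.41 (adjusted p = 0.00366, edgeR). Its edgeR or DESeq2 adjusted p ran between 1.03e-05 and 0.0196 over the 20 alternatives in which it was tested. Without barcodes that carried at least 2 UMIs of another cell type's markers, Cd177 fell below the low-count filter, and an edgeR fit without that filter gave a log2 fold change of -1.03 (adjusted p = 0.50). This choice left 89, 459 and 143 barcodes in the tumor mice and 150, 148 and 135 in the blood mice.

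Of the 8 members tested, Olfm4 was the one that rose in tumor. It had 9, 122 and 25 UMIs in the tumor mice, or 127, 317 and 214 CPM, and 11, 18 and 23 UMIs in the blood mice, or 25.2, 47.4 and 69.6 CPM. All tumor mice were above all blood mice, and the log2 fold change was 2.51 ± 0.32 (adjusted p = 1.21e-06, edgeR). The most Olfm4 found in 1 barcode was 14 UMIs in tumor and 11 in blood, and that blood barcode held 47.8% of the Olfm4 UMIs of blood mouse 3.

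Camp stood at 99.1, 2091 and 488 CPM in the tumor mice and at 3203, 5031 and 1680 CPM in the blood mice. Tumor mouse 2 lay above blood mouse 3, and the log2 fold change of -1.61 ± 0.99 did not pass (adjusted p = 0.237, edgeR). Ngp stood at 751, 2429 and 1566 CPM in tumor and at 3261, 4462 and 2047 CPM in blood (log2 fold change -0.93 ± 0.55; adjusted p = 0.221, edgeR). Ltf stood at 156, 791 and 197 CPM in tumor and at 980, 1308 and 596 CPM in blood (log2 fold change -0.97 ± 0.69; adjusted p = 0.298, edgeR). For both, tumor mouse 2 was again above blood mouse 3. Chil3 stood at 0, 197 and 25.7 CPM in the tumor mice and at 197, 266 and 99.9 CPM in the blood mice (log2 fold change -0.57 ± 0.82; adjusted p = 0.596, edgeR). A single barcode held 28.0% of the Camp UMIs of tumor mouse 2 and 82.5% of those of tumor mouse 3. Fcnb had all its 15 tumor UMIs in mouse 2 and its 4 blood UMIs in blood mouse 2. In the fit without a low-count filter its log2 fold change was 2.43 ± 0.85 (adjusted p = 0.029, edgeR), a value that rests on 2 barcodes in each tissue.

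**Figure D4:**
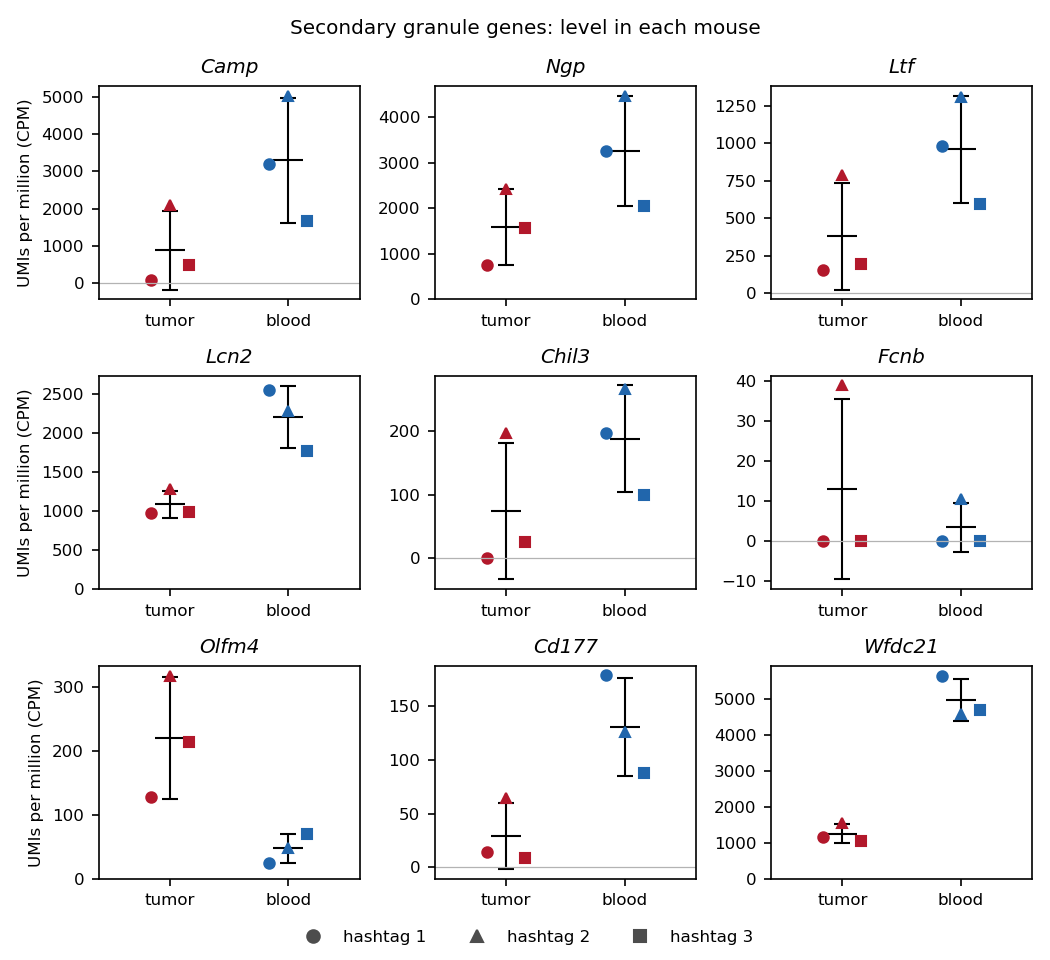
Level of each of the 9 members in CPM (vertical axes, one scale per gene) in the 3 tumor mice (red, left) and 3 blood mice (blue, right), with mice assigned by the top hashtag; horizontal marks and bars give the mean and SD of 3 mice and symbols the hashtag. Wfdc21, Lcn2, Cd177 and Olfm4 have no overlap between tissues, whereas for Camp, Ngp, Ltf and Chil3 tumor mouse 2 lies above blood mouse 3.

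The calls of Wfdc21, Lcn2, Olfm4 and Cd177 were the same by both hashtag rules, and the call of Chil3 was not. With HTODemux, 2916 genes were tested, of which 31.1% were called higher and 32.2% lower in tumor, and of the 8 members tested 1 was called higher and 4 lower. Chil3 then had 6 UMIs in the tumor mice against 181 in the blood mice, and a log2 fold change of -3.51 (adjusted p = 0.00696, edgeR). With hashtags scaled within each barcode HTODemux gave no Chil3 call (log2 fold change -0.52; adjusted p = 0.668, edgeR). For Cd177 the log2 fold change with HTODemux was -2.75 (adjusted p = 1.59e-04, edgeR). Leaving out tumor mouse 2 under the top hashtag rule gave the same value for Chil3, -3.51 (adjusted p = 0.00835, edgeR), and also called Ltf, at -2.39 (adjusted p = 0.0345, edgeR). The calls of Camp, Ngp and Ltf also depended on how edgeR estimated the spread of each gene. With the robust estimate used here they did not pass. Without it their edgeR adjusted p values were 0.0118, 0.0125 and 0.0312 at the same fold changes. That made 6 of the 8 members tested lower in tumor, beside 1094 of the 3674 genes tested. Over 23 alternatives the edgeR or DESeq2 adjusted p ran between 3.53e-04 and 0.442 for Camp, between 0.00314 and 0.876 for Ngp, between 1.63e-04 and 0.813 for Ltf, and between 1.09e-04 and 0.811 for Chil3 over the 20 in which it passed the low-count filter.

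Pooled over all kept barcodes, with no hashtag needed and so with 1 library per tissue and no test, the tumor over blood ratio of CPM was 0.486 for Camp (exact 95% counting interval 0.453 to 0.521), 0.636 for Ngp (0.597 to 0.678), 0.631 for Ltf (0.559 to 0.710), 0.534 for Lcn2 (0.492 to 0.579) and 0.695 for Chil3 (0.533 to 0.900). It was 0.329 for Cd177 (0.210 to 0.498), 0.276 for Wfdc21 (0.257 to 0.296) and 5.0 for Olfm4 (3.78 to 6.67). All 9 members together made up 6969 CPM in tumor and 14447 CPM in blood.

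Outside the barcodes with at least 10 Camp UMIs, 6 members were tested between tissues, of which 1 was called higher and 2 lower in tumor. Camp, Ngp and Ltf did not pass. Of all 3401 genes tested without those barcodes, 1047 were called higher and 1040 lower. Nothing particular to the group is read from these counts. Camp averaged 93.7 ± 6.22 CPM in the tumor mice and 133 ± 47.3 CPM in the blood mice, Ngp 703 ± 211 CPM in tumor against 457 ± 257 CPM in blood, and Ltf 83.4 ± 63.9 CPM in tumor against 50.4 ± 14.9 CPM in blood (SD, n = 3 each). In the fit without those barcodes, the log2 fold changes were -0.45 ± 0.29 for Camp, 0.56 ± 0.57 for Ngp and 0.49 ± 0.40 for Ltf, with edgeR adjusted p values of 0.193, 0.453 and 0.301. Wfdc21 averaged 1095 ± 128 CPM in tumor and 4229 ± 655 CPM in blood, a log2 fold change of -1.88 ± 0.13 (adjusted p = 4.32e-11, edgeR), almost the value with all barcodes. Lcn2 averaged 796 ± 175 CPM in tumor against 1175 ± 291 CPM in blood, with a log2 fold change of -0.58 ± 0.17 (adjusted p = 0.00541, edgeR). Olfm4 averaged 212 ± 81.8 CPM in tumor against 31.1 ± 11.9 CPM in blood, with a log2 fold change of 3.01 ± 0.31 (adjusted p = 3.99e-08, edgeR). These barcodes were left out by a member's own counts, at a limit chosen after the values were seen, so the Camp value is bounded by the choice. They also held 73.4% of the Ngp and 88.3% of the Ltf UMIs in tumor, and 86.3% and 95.1% in blood. The Ngp and Ltf values, with their change of sign, thus also follow in part from the choice, and nothing is read from the loss of these differences.

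**Figure D5:**
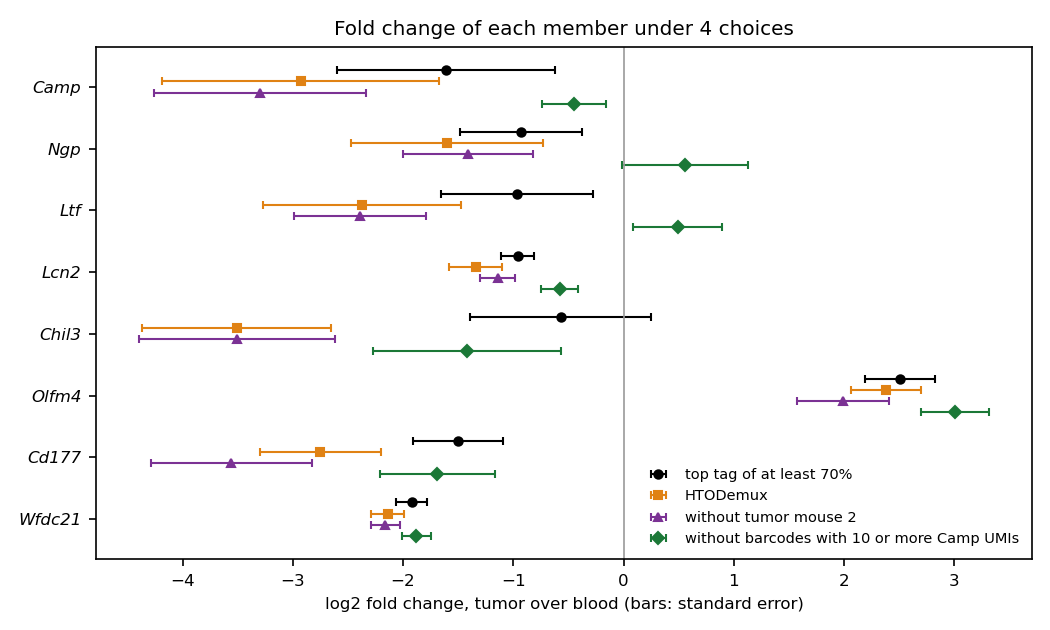
Log2 fold change of 8 members, tumor over blood (horizontal axis, bars are standard errors), with mice assigned by the top hashtag (black), by HTODemux (orange), without tumor mouse 2 (purple) and without barcodes with at least 10 Camp UMIs (green). Wfdc21 stays between -2.16 and -1.88 and Olfm4 between 1.99 and 3.01, whereas Ngp and Ltf lie below 0 in 3 of the 4 choices and at 0.56 and 0.49 without the Camp-rich barcodes.

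Shares of barcodes with a UMI were compared at a depth of 441 UMIs per barcode, which leaves out 209 assigned tumor and 254 assigned blood barcodes. Barcodes with 20 to 60 UMIs, taken as a measure of free RNA in the droplets, gave the share expected from free RNA alone at that depth. Camp made up 201 CPM of those tumor barcodes and 636 CPM of those blood barcodes, Olfm4 made up 119 CPM in tumor against 28.3 CPM in blood, and Wfdc21 325 CPM in tumor against 1511 CPM in blood. Wfdc21 was found in 26.9%, 23.3% and 17.3% of barcodes in the tumor mice and in 64.2%, 62.6% and 58.5% in the blood mice, above the free-RNA shares of 13.3% in tumor and 48.7% in blood. Lcn2 was found in 17.0 ± 0.531% in tumor and 28.0 ± 4.57% in blood, with free-RNA shares of 9.85% in tumor and 18% in blood. Both differences had an exact two-sided permutation p of 0.10 over the mice, the smallest possible, and 0.129 after Benjamini-Hochberg adjustment over the 9 members. Olfm4 was found in 5.82 ± 2.90% in tumor and 1.42 ± 0.226% in blood (exact permutation p = 0.10), close to its free-RNA shares of 5.13% in tumor and 1.24% in blood. Camp was found in 2.75 ± 0.832% in tumor and 7.37 ± 1.48% in blood, below the free-RNA shares of 8.50% in tumor and 24.5% in blood, and the same held for Ngp (4.90% in tumor and 10.2% in blood, free-RNA shares 14.3% in tumor and 21.6% in blood) and Ltf (3.11% in tumor and 4.89% in blood, free-RNA shares 7.44% in tumor and 8.71% in blood). The free-RNA shares take all 441 UMIs of a barcode as free RNA, which is the most it could hold. Shares below them cannot tell whether a barcode with 1 UMI of Camp, Ngp or Ltf held it from a cell or from free RNA. No order was read from these shares. Without thinning, Wfdc21 was found in 22.7 ± 3.85% of tumor barcodes and 63.3 ± 3.10% of blood barcodes.

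Among the barcodes of each tissue, the members differed in how closely they ran with Camp. The correlation of log levels between Camp and Ngp was 0.67 over 947 tumor barcodes and 0.74 over 1534 blood barcodes, between Camp and Ltf 0.55 in tumor and 0.77 in blood, and between Camp and Chil3 0.56 in tumor and 0.64 in blood. Between Camp and Cd177 it was 0.53 in tumor and 0.49 in blood, between Camp and Lcn2 0.36 in tumor and 0.43 in blood, and between Camp and Wfdc21 0.28 in tumor and 0.24 in blood. Olfm4 stood at 0.06 in tumor and 0.07 in blood against Camp, and between -0.01 and 0.13 in tumor and between -0.01 and 0.1 in blood against all other members. Fcnb stood at 0.35 against Camp in tumor. In blood it was as low as Olfm4, at 0.05 against Camp and between -0.01 and 0.07 against the others. With 71 Olfm4 and 4 Fcnb UMIs in blood, low values there can follow from sparse counts, which was not tested. The genes outside the group whose levels ran most closely with the summed members were Retnlg (0.52), S100a8 (0.39), Mmp8 (0.38), Ifitm6 (0.36) and S100a9 (0.36) of 924 genes in tumor, and Retnlg (0.50), S100a8 (0.48), Lyz2 (0.48), S100a9 (0.46) and S100a6 (0.45) of 1575 genes in blood. These correlations share library and depth and are given as a description.

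Of 14 other genes of specific and gelatinase granules, 13 were tested, 9 were called lower and 2 higher, beside 29.6% of all genes tested called lower and 30.3% called higher, at a median log2 fold change of -1.38 (values in parentheses after a gene are its log2 fold change, tumor over blood). Those called lower included Lrg1 (-2.20), the peptidoglycan-binding protein Pglyrp1 (-2.13), gelatinase B encoded by Mmp9 (-2.09), the haptoglobin gene Hp (-2.06), the collagenase gene Mmp8 (-1.91), the annexin gene Anxa1 (-1.91), the membrane-bound protease gene Mmp25 (-1.38), the integrin chain Itgam (-0.75) and the oxidase subunit Cyba (-0.49). Adam8 (1.2) and the protease inhibitor Slpi (0.67) were called higher, and Lyz2 (-0.66) and the oxidase subunit Cybb (0.02) did not pass. Of 9 primary granule genes only Cd63, which marks granule membranes but also other vesicles, was tested, and it was called higher (2.99). Of 10 genes of mature neutrophils 8 were called lower, again beside 29.6% of all genes, among them Ly6g (-2.19), whose protein was used for sorting, and Cxcr2 (-2.78), and 2 were higher, Il1b (0.73) and G0s2 (4.67).

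Among 7 transcription factors of granulocytes 4 were tested, of which 2 were called higher and 2 lower, beside 30.3% and 29.6% of all genes. Cebpb (4.47) and Runx1 (2.23) were higher in tumor, and Cebpd (-2.56) and Spi1 (-1.41), which encodes PU.1, were lower. Cebpe was too rare to test. Of 8 receptors and partners of the granule proteins 5 were tested. Of these, 2 were called lower, beside 29.6% of all genes: the integrin chains Itgb2 (-0.77) and Itgam (-0.75), the latter also counted in the granule list above. The formyl peptide receptor genes Fpr1 (-0.55) and Fpr2 (-0.05) and Tlr4 (0.19) did not pass. Pecam1, whose protein binds CD177 in humans, was not tested, with 19 tumor UMIs and 11 blood UMIs.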

How the data were processed

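UMI counts per gene and barcode, and hashtag counts per barcode, were used as the authors deposited them. The submitters' processing notes name STAR and mm10. Which counter, annotation or barcode filter came after is not given in the sources used here. Genes listed in 1 file only were given 0 counts in the other, and no row lacked a gene name. Barcodes with at least 200 detected genes and at most 15% mitochondrial UMIs were kept. UMIs were summed per mouse and tissue (top hashtag at least 70% of at least 10 counts) and tested with edgeR 4.0.16 (R 4.3.3): default low-count filter, TMM scaling, quasi-likelihood F test with tissue as the only term and robust estimation of the spread. The robust setting was adopted after both settings had been seen, because it was the one that matched earlier counts from these data. Alternatives included HTODemux of Seurat 5.3.0 (4 k-means centres, quantile 0.99) and DESeq2 1.42.0. For HTODemux, hashtags were scaled across barcodes; scaling within each barcode was run first, and the other was adopted because its calls matched earlier ones from these data. Beyond hashtags, no doublet caller was run, and doublets within a mouse are not seen. On simulated counts the edgeR step was tested before use. Precision is lowest in tumor mouse 1, with 70612 UMIs. Shares of barcodes at fixed depth are expected values over all thinned draws. The named genes were the 9 members, genes of lists that were called or on which a result turns, and the 5 most correlated genes per tissue. Members and lists were chosen with earlier results of these data known. The labels do not say whether a hashtag marks the same mouse in both tissues. Tests therefore left tumor and blood of a mouse unpaired, except the fit with the hashtag number as a block. Promoters came from RefSeq (GRCm38.p6), positions from GENCODE vM21.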

Additional observations from a re-analysis of the deposited data

How the results depend on the processing

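Wfdc21, Lcn2 and Olfm4 kept their direction and their call in all 23 alternatives run, with log2 fold changes between -2.37 and -1.61, between -1.75 and -0.38 and between 1.67 and 3.01. Cd177 kept it in the 20 in which it passed the low-count filter. It did not pass that filter without barcodes carrying other cell types' markers, also with erythroid markers not counted, and without the Camp-rich barcodes (the last 2 added after seeing the data), where fits without the filter gave -1.03, -1.05 and -1.69 (edgeR adjusted p = 0.50, 0.314 and 0.00873). Without the robust spread (also added later), 6 of 8 members tested were lower, beside 1094 of 3674 genes. Camp (-1.61), Ngp (-0.93) and Ltf (-0.97) then passed. With HTODemux as well, 7 of 8 members were lower, beside 938 of 2916 genes. Camp was then at -2.93, Ngp at -1.60, Ltf at -2.37 and Chil3 at -3.51. Chil3 also passed with HTODemux alone (-3.51), and Ngp passed with at most 5% mitochondrial UMIs (-1.86). The HTODemux values depend on how hashtags are scaled. Scaled within each barcode (listed after both scalings had been seen), Chil3 was at -0.52 (edgeR adjusted p = 0.668), Camp at -1.70 and Fcnb at 3.37. In that fit 3 of 8 members were lower, beside 1024 of 3420 genes. With the hashtag number as a replicate block, 5 of 8 members were lower, beside 982 of 3674 genes, Ngp (-1.02) and Ltf (-1.32) among them. Each mouse's deviations of log2 CPM from its tissue mean were also compared between tumor and blood. They correlated at 0.02, 0.01 and -0.02 for the same hashtag number, so the numbers are not shown to pair the mice.

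Without barcodes with at least 10 Camp UMIs, which held most of their UMIs, Ngp (0.56) and Ltf (0.49) changed sign. So did Ltf (0.10) without other cell types' markers except erythroid ones. Without barcodes carrying other cell types' markers, erythroid ones included, Lcn2 was at -0.38 (edgeR adjusted p = 0.0438), Ngp at -0.14 and Ltf at -0.42. In that fit Camp was at -1.57, Wfdc21 at -1.61 and Olfm4 at 2.76. It kept 150, 148 and 135 of 511, 456 and 408 barcodes in the blood mice. In the tumor mice it kept 89, 459 and 143 of 106, 564 and 171. Median UMIs per blood barcode fell from 671, 648 and 652 to 510, 520 and 502, and in tumor from 586, 570 and 586 to 552, 552 and 555. The loss of barcodes and depth cannot be told apart from the loss of other cell types. Fcnb, at 15 tumor and 4 blood UMIs and below the low-count filter wherever it was used, reached -2.32 with HTODemux under both spreads, -2.41 without the Camp-rich barcodes and -2.33 without other cell types' markers except erythroid ones, and did not pass with at most 5% mitochondrial UMIs (1.72), with DESeq2 (1.94) or with the block (1.72). Its share of barcodes, tumor minus blood, was -0.0280 percentage points unthinned, -0.00359 at 300 UMIs and -0.0129 with HTODemux. Without a low-count filter Fcnb made 2 of 9 members higher, beside 1203 of 16032 genes.

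Calls over all genes fell to 741 higher and 672 lower at 5% mitochondrial UMIs, and to 499 and 442 without other cell types' markers, where fewer genes were tested (2102 and 1356). Leaving out each mouse in turn gave 838 to 1225 genes higher, 860 to 1232 lower, 1 member higher and 3 to 5 lower, and fold changes of -3.30 to -1.19 for Camp, -1.41 to -0.62 for Ngp, -2.39 to -0.69 for Ltf, -1.25 to -0.87 for Lcn2, -3.51 to -0.27 for Chil3, -3.13 to 5.58 for Fcnb, 1.99 to 2.70 for Olfm4, -3.56 to -1.21 for Cd177 and -2.16 to -1.81 for Wfdc21. For every member but Lcn2 the lowest value came without tumor mouse 2.

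With at least 300 detected genes the pooled ratios were 0.613 for Camp, 0.789 for Ngp, 0.778 for Ltf, 0.604 for Lcn2 and 0.308 for Wfdc21, and with the hashtag requirement 0.451 for Camp. Leaving out barcodes that pass in both files removed none. Depth limits Fcnb, Cd177 and Chil3, with 15, 27 and 81 tumor UMIs.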

Other observations

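Tumor barcodes that HTODemux left negative, with hashtags scaled across barcodes, held a large share of the Camp, Ngp and Lcn2 UMIs. These 231 barcodes held 56.6% of the Camp, 56.8% of the Ngp and 44.7% of the Lcn2 UMIs of the kept tumor barcodes, at 4114, 5349 and 2471 CPM, against 326, 832 and 748 CPM in the 590 tumor barcodes that it assigned to a mouse. The 231 included 6 of the 11 tumor barcodes with at least 10 Camp UMIs. Those 11 held 93.6% of the tumor Camp UMIs, 73.4% of Ngp and 42.7% of Lcn2. The levels of the negative barcodes thus rest in large part on few of them. The tumor barcodes with at least 10 Camp UMIs had a median of 853 hashtag counts, against 1356 in the remaining tumor barcodes. The barcodes that HTODemux assigned thus held 13.5% of the tumor Camp UMIs, whereas the rule of a 70% top hashtag kept 870 of 983. These values depend on the scaling: with hashtags scaled within each barcode, 130 tumor barcodes were negative and held 18.7% of the Camp UMIs, at 2706 CPM, against 1452 CPM in the 751 that were assigned, which held 76.8%.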
